A study of Macaca mulatta with 20 samples.

Results

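The genes described here are 33 targets of the transcription factor p53 or markers of radiation exposure in blood. Among them are CDKN1A, MDM2, DDB2 and FDXR, and all 33 are called p53 targets below. They were chosen by name, of the 25992 gene names on the array, and a gene was tested where at least 1 of its probes was well above background on at least 5 of the 20 arrays. By that rule 30 of the 33 genes were tested, each through the probe with the highest mean signal. EDA2R, a death receptor, TRIAP1, an apoptosis inhibitor, and SPATA18, a regulator of mitochondrial quality, had no such probe: their best probes were above background on 1, 1 and 0 arrays, so no level is given for them. The RNA came from whole blood of rhesus macaques, depleted of globin transcripts, and was hybridized in one color to Agilent Whole Human Genome 4x44K v2 arrays. The groups, of 5 arrays each, were pre-irradiation (sampled 3 days before exposure), day 2, day 5 and day 30 after 10 Gy of X-rays to the whole thorax, which every animal received. The controls are thus earlier samples of irradiated animals, and no sham-irradiated animals were analysed here. Blood was drawn from 8 animals, of which 5 samples a group were hybridized, and which animal gave each sample is not in the labels. In 1 case, also not identified there, the RNA of 2 animals was pooled.

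p53 is a DNA-binding protein that is kept scarce by its ubiquitin ligase MDM2 and is stabilised by the kinases ATM and CHEK2 when DNA strands break. It then switches on genes that halt the cell cycle, repair DNA, sustain redox balance or start apoptosis, and also the genes of its own inhibitors, so that the response is a pulse. In blood, lymphocytes are known to respond to radiation with these genes and to die readily, which is why transcripts such as CDKN1A, FDXR and DDB2 serve in radiation biodosimetry.

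As macaque RNA was hybridized to human probes, sequences of some are shown, for DDB2 and CYFIP2 not that of the tested probe. All come from the array design, whose coordinates are those of human build hg19. Those printed lie in coding sequence, where the match between human and macaque is usually closest, and belong to CDKN1A, XPC, MDM2, DDB2, TP53I3 and CYFIP2, the last 4 being genes measured by more than 1 probe. They are written 5′ to 3′ in lower case, and the capitals in the MDM2 probe mark the stop codon that ends its only open reading frame.
MDM2 (chr12:69233570-69233629, plus strand): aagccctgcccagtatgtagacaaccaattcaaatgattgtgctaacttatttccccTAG
CDKN1A (chr6:36652178-36652237, plus strand): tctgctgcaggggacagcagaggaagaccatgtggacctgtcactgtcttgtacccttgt
DDB2, dimmer of 2 probes (chr11:47238539-47238598, plus strand): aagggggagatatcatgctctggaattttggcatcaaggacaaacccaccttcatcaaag
XPC (chr3:14187441-14187500, minus strand): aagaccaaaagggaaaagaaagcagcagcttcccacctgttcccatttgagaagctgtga
TP53I3, brighter of 2 probes (chr2:24300504-24300563, minus strand): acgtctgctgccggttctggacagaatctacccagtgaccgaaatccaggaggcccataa
TP53I3, dimmer of 2 probes (chr2:24300615-24302356, minus strand): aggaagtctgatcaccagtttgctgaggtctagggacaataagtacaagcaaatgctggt
CYFIP2, dimmer of 2 probes (chr5:156786025-156786084, plus strand): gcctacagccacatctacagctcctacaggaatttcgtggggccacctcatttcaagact
The dimmer TP53I3 probe is 60 bases long but spans 1742 bases of the genome, so it crosses a splice junction, and each of the other probes printed lies in 1 stretch of the genome. All 33 gene symbols are in the RefSeq annotation of the macaque genome. How many bases of each probe match the macaque transcript was not tested.

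Adjusted p-values below are those of limma over all tested probes. Levels are given as log2 of the processed signal minus the 75th percentile of the array, so 0 is the 75th percentile, and a level of 1 probe is never set against that of another. Changes are differences of these log2 levels, fitted in limma with a block for the replicate number, as the study compared samples with matched controls. A probe was called at an unadjusted p-value under 0.005 together with a Benjamini-Hochberg FDR under 10%. The share of spots well above background ranged from 50.9% to 67.3% over the arrays, and the highest, day 5 replicate 3, stood apart from the other day 5 arrays (55.9% to 58.5%). Each slide held 1 array of each group at the same position, so position on the slide and group cannot be told apart. Of the 30 tested genes, 26 were above background on all 20 arrays. The others were CDKN1A on 13 arrays, TNFRSF10B on 8, and AEN and SESN1 on 19 each.

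No p53 target was called in the main limma fit of any of the 6 comparisons of groups. Over all 19961 probes tested the called share was 0.0601% on day 2 against pre-irradiation, 0.00% on day 5, 0.00% on day 30, 0.00% for day 5 against day 2, 0.0501% for day 30 against day 2 and 0.00% for day 30 against day 5 in this fit. Other settings called between 0 and 588 probes on day 2, between 0 and 9 on day 5 and between 0 and 952 on day 30. At an unadjusted p-value under 0.05, limma found 2997, 2230 and 3496 of all probes on days 2, 5 and 30 against pre-irradiation, and 10, 8 and 4 of the 30 genes. The comparisons with pre-irradiation share the same 5 control arrays. Nothing in the labels states that arrays of the same replicate number came from the same animal. With the replicate block, the p-values measure the spread of the differences between same-numbered arrays.

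On day 2, 23 of the 30 genes were higher than before irradiation, with a median log2 change of 0.28, beside -0.04 for all probes tested. An unadjusted p-value under 0.05 went with a higher level for 9 genes (30.0%), beside 8.47% of all probes, and with a lower level for 1 gene (3.33%), beside 6.55%. With normexp background correction the 9 became 3, and the median of all probes moved to 0.16. The 9 were BBC3, MDM2, PMAIP1, DDB2, TNFRSF10B, TP53I3, CDKN1A, PHLDA3 and FAS, and the lower 1 was CYFIP2. A higher level in every one of the 5 same-numbered pairs was found for 8 genes (26.7%), beside 6.17% of all probes. All 5 day 2 arrays lay above all 5 pre-irradiation arrays for BBC3 alone (3.33% of the genes), beside 0.536% of all probes. In the pair of replicate 2, 14 genes were higher and 16 lower, with a median change of -0.06, while in the pairs of replicates 1, 3, 4 and 5 between 19 and 24 genes were higher, with medians from 0.17 to 0.51.

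On day 5, 22 of the 30 genes were above their level before irradiation, with a median change of 0.19 beside 0.03 for all probes, or 0.05 beside -0.11 if arrays are scaled to their medians. Of the genes, 7 (23.3%) were higher at an unadjusted p-value under 0.05, beside 7.35% of all probes, and 1 (3.33%) was lower, beside 3.82%. The higher genes were TNFRSF10B, TP53I3, BBC3, PMAIP1, RPS27L, TP53INP1 and MDM2, and the lower 1 was again CYFIP2. With arrays scaled to their medians those counts were 2 and 2, and without replicate 2 they were 2 and 1. A higher level in every pair was found for 10 genes (33.3%), beside 7.24% of all probes.

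On day 30, 17 genes were higher and 13 lower, with a median change of 0.09 beside -0.02 for all probes. That median was -0.02 without replicate 5. In the deposited log2 values it was 0.31, beside 0.12 for all probes there. They hold only 14 of the 30 genes, so 0.31 is the median of another set of genes than 0.09. The unadjusted p-value was under 0.05 for 2 higher genes (6.67%), beside 7.43% of all probes, and for 2 lower genes (6.67%), beside 10.1%, shares no larger than those of all probes. They were PMAIP1 and PPM1D, and CYFIP2 and ASCC3. A higher level in every pair was found for 5 genes (16.7%), beside 7.41%.

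**Figure D1:**
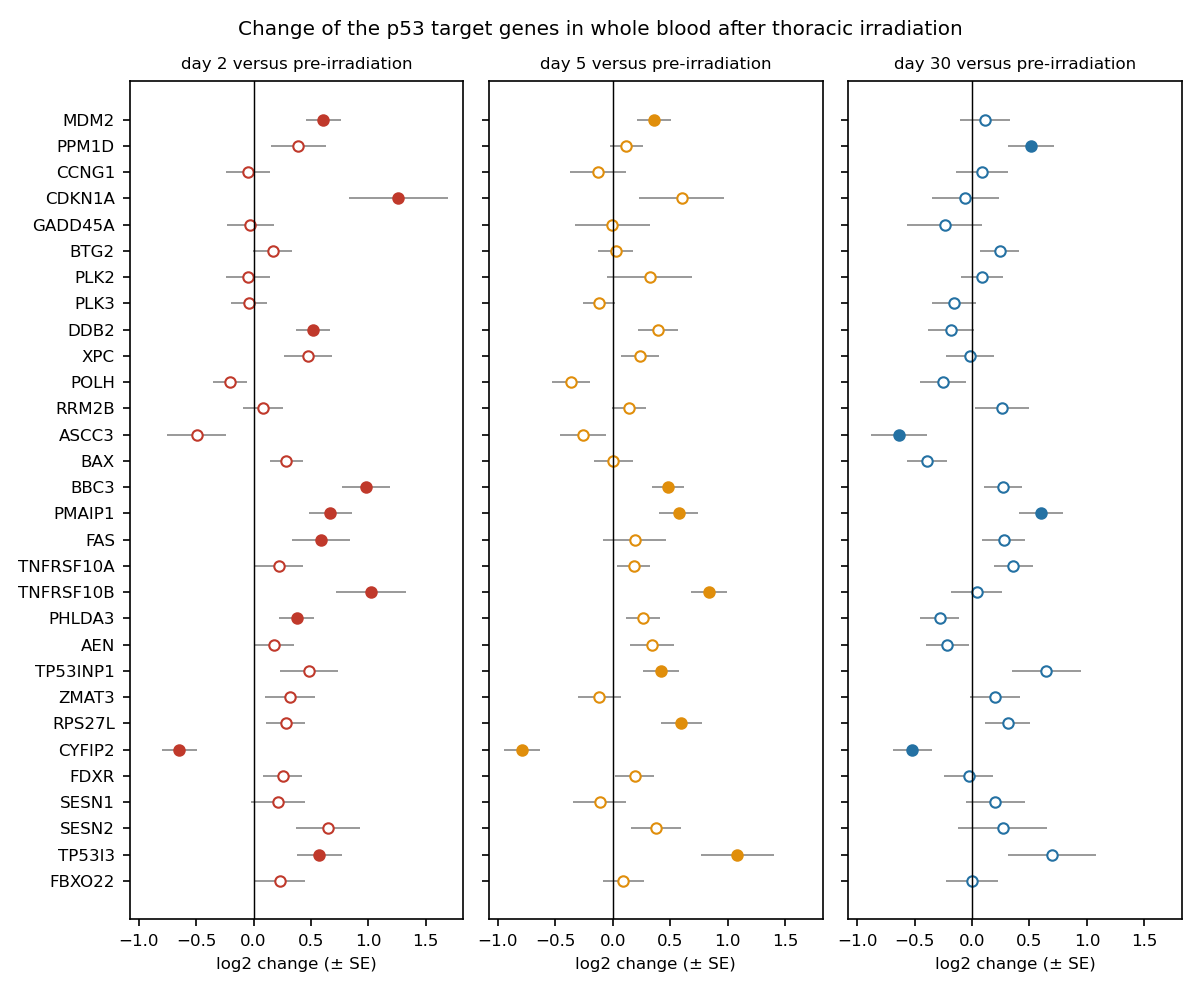
Log2 change against pre-irradiation for the 30 tested genes, in 1 panel for each day, with points for the limma estimate and bars of 1 SE over 5 pairs. Filled points have an unadjusted p-value under 0.05 (10 genes on day 2, 8 on day 5 and 4 on day 30), and no gene was called.

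The feedback regulators of p53 are MDM2, PPM1D and CCNG1. MDM2, the ubiquitin ligase that marks p53 for destruction, had levels in replicates 1 to 5 of 1.03, 0.44, 1.07, 0.01 and 0.98 before irradiation and of 1.62, 0.86, 1.48, 1.01 and 1.60 on day 2. On day 5 they were 1.49, 0.99, 1.19, 0.54 and 1.12, and on day 30 1.33, 0.50, 0.48, 0.82 and 0.95. Day 2 was above pre-irradiation in 5 of 5 pairs although the ranges of the 2 groups overlapped. The change was 0.61 ± 0.15 (SE) on day 2, with adjusted p = 0.193, 0.36 ± 0.15 (SE) on day 5 and 0.11 ± 0.22 (SE) on day 30, the smallest of its 3 probes on each day.

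PPM1D, the phosphatase WIP1 that switches off the damage kinases, had levels of 1.09, 1.36, 0.76, 1.25 and 1.36 before irradiation and 1.52, 0.99, 2.12, 1.42 and 1.72 on day 2. The day 5 levels were 1.30, 1.37, 0.65, 1.33 and 1.77 and the day 30 levels 2.20, 1.54, 1.28, 1.31 and 2.06. The day 30 arrays were above pre-irradiation in 5 of 5 pairs, with a change of 0.51 ± 0.20 (SE) and adjusted p = 0.246. The 2nd probe of PPM1D gave a change of -0.15 on day 30, so its probes did not share a direction. CCNG1, cyclin G1, which recruits a phosphatase to MDM2, had changes of -0.05, -0.13 and 0.09 on days 2, 5 and 30, none with an unadjusted p-value under 0.05.

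Among the 5 genes of cell cycle arrest, CDKN1A had the largest change on day 2. CDKN1A, the cyclin-dependent kinase inhibitor p21, had levels of -5.64, -4.15, -3.55, -3.25 and -4.54 before irradiation, when 2 of 5 arrays were above background, and of -2.48, -3.60, -3.31, -2.95 and -2.49 on day 2, when all 5 were. On day 5 they were -5.22, -3.53, -2.56, -4.26 and -2.56 and on day 30 -4.95, -4.02, -3.89, -4.58 and -3.99, with 3 of 5 arrays above background each time. Every pair was higher on day 2, but pre-irradiation replicates 3 and 4 reached into the day 2 range, and the day 5 arrays were spread from -5.22 to -2.56. The change on day 2 was 1.26 ± 0.43 (SE), with adjusted p = 0.258 from limma. Without replicate 1 it was 0.79. It was 0.60 ± 0.37 (SE) on day 5 and -0.06 ± 0.29 (SE) on day 30.

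GADD45A, a stress protein that binds PCNA and the CDK1 kinase, differed by -0.03 on day 2 and -0.24 on day 30. BTG2, an antiproliferative adaptor of mRNA decay, differed by 0.17 and 0.24, and the polo-like kinases PLK2 and PLK3 by -0.05 and -0.04 on day 2. None of the 4 had an unadjusted p-value under 0.05 on any day.

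In the group of DNA repair and nucleotide supply, DDB2 and XPC, which recognise lesions in nucleotide excision repair, were tested beside ASCC3, a helicase of alkylation repair, and DDB2 was the single gene of the group with an unadjusted p-value under 0.05 on day 2. DDB2 had levels of 2.81, 2.55, 2.44, 2.60 and 2.31 before irradiation and 3.23, 2.77, 3.21, 3.12 and 2.97 on day 2. They were 2.81, 3.10, 2.94, 2.64 and 3.18 on day 5 and 1.94, 2.52, 2.27, 2.52 and 2.55 on day 30. The day 2 and day 5 arrays were above pre-irradiation in 5 of 5 pairs, with a single pre-irradiation array, replicate 1, inside the range of day 2. The change was 0.52 ± 0.15 (SE) on day 2 (adjusted p = 0.218), 0.39 ± 0.18 (SE) on day 5 (adjusted p = 0.461) and -0.18 ± 0.20 (SE) on day 30 (adjusted p = 0.667). XPC was at 0.47 on day 2, with an unadjusted p-value above 0.05 (adjusted p = 0.337), at 0.24 on day 5 in 5 of 5 pairs, and at -0.02 on day 30.

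ASCC3 had levels of 0.86, -0.26, 0.79, 0.52 and 0.53 before irradiation and -0.10, 0.28, -0.47, 0.27 and 0.01 on day 2. Day 5 gave 0.66, 0.19, 0.43, 0.24 and -0.38, and day 30 gave -0.31, -0.32, 0.03, 0.58 and -0.71. The change was -0.64 ± 0.24 (SE) on day 30, with adjusted p = 0.239 and 4 of 5 pairs lower, and -0.50 ± 0.26 (SE) on day 2 with adjusted p = 0.407. POLH, the translesion polymerase eta, was at -0.20, -0.37 and -0.25 on the 3 days (adjusted p = 0.462 on day 5). RRM2B, a ribonucleotide reductase subunit, differed by 0.08 to 0.26 and had no unadjusted p-value under 0.05.

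The 3 genes of mitochondrial apoptosis code for members of the BCL2 family that open the outer mitochondrial membrane or disarm its guards. BBC3, the BH3-only protein PUMA, had levels of 3.42, 3.32, 3.35, 3.13 and 3.51 before irradiation and of 4.35, 3.54, 4.95, 4.32 and 4.44 on day 2. On day 5 they were 3.60, 3.99, 3.90, 3.59 and 4.04, and on day 30 3.68, 3.66, 3.36, 3.35 and 4.03. Neither day 2 nor day 5 overlapped with pre-irradiation, and replicate 2 was the lowest of the day 2 arrays. How many of all probes had no overlap on day 5 was not counted. The change was 0.98 ± 0.21 (SE) on day 2, with adjusted p = 0.166, 0.48 ± 0.14 (SE) on day 5 with adjusted p = 0.338, and 0.27 ± 0.16 (SE) on day 30 with adjusted p = 0.42. Of the p53 targets it had the smallest p-value on day 2. It was called on day 2 without replicate 2 (change 1.17, adjusted p = 0.0671), where 588 of all probes (2.95%) were called. With all 20 arrays in one fit 343 of all probes (1.72%) were called on day 2, and with them BBC3 (adjusted p = 0.0336), CYFIP2 (adjusted p = 0.0419) and TNFRSF10B.

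PMAIP1, the BH3-only protein NOXA, had levels of 0.43, 0.14, 0.23, -0.36 and 0.09 before irradiation and 1.62, 0.66, 0.52, -0.03 and 1.12 on day 2. The day 5 levels were 0.57, 1.01, 0.56, 0.21 and 1.05 and the day 30 levels 0.46, 0.71, 0.81, 0.41 and 1.16. It was higher in 5 of 5 pairs on each of the 3 days, with overlapping groups, and it was the only one of the 30 genes with a higher level and an unadjusted p-value under 0.05 on all 3. The changes were 0.67 ± 0.19 (SE), 0.57 ± 0.17 (SE) and 0.60 ± 0.19 (SE), with adjusted p = 0.21, 0.339 and 0.187. BAX, the effector that forms the pore, was higher by 0.29 on day 2 in 5 of 5 pairs (adjusted p = 0.394), differed by 0.01 on day 5, and was at -0.39 on day 30, lower in 5 of 5 pairs (adjusted p = 0.286).

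**Figure D2:**
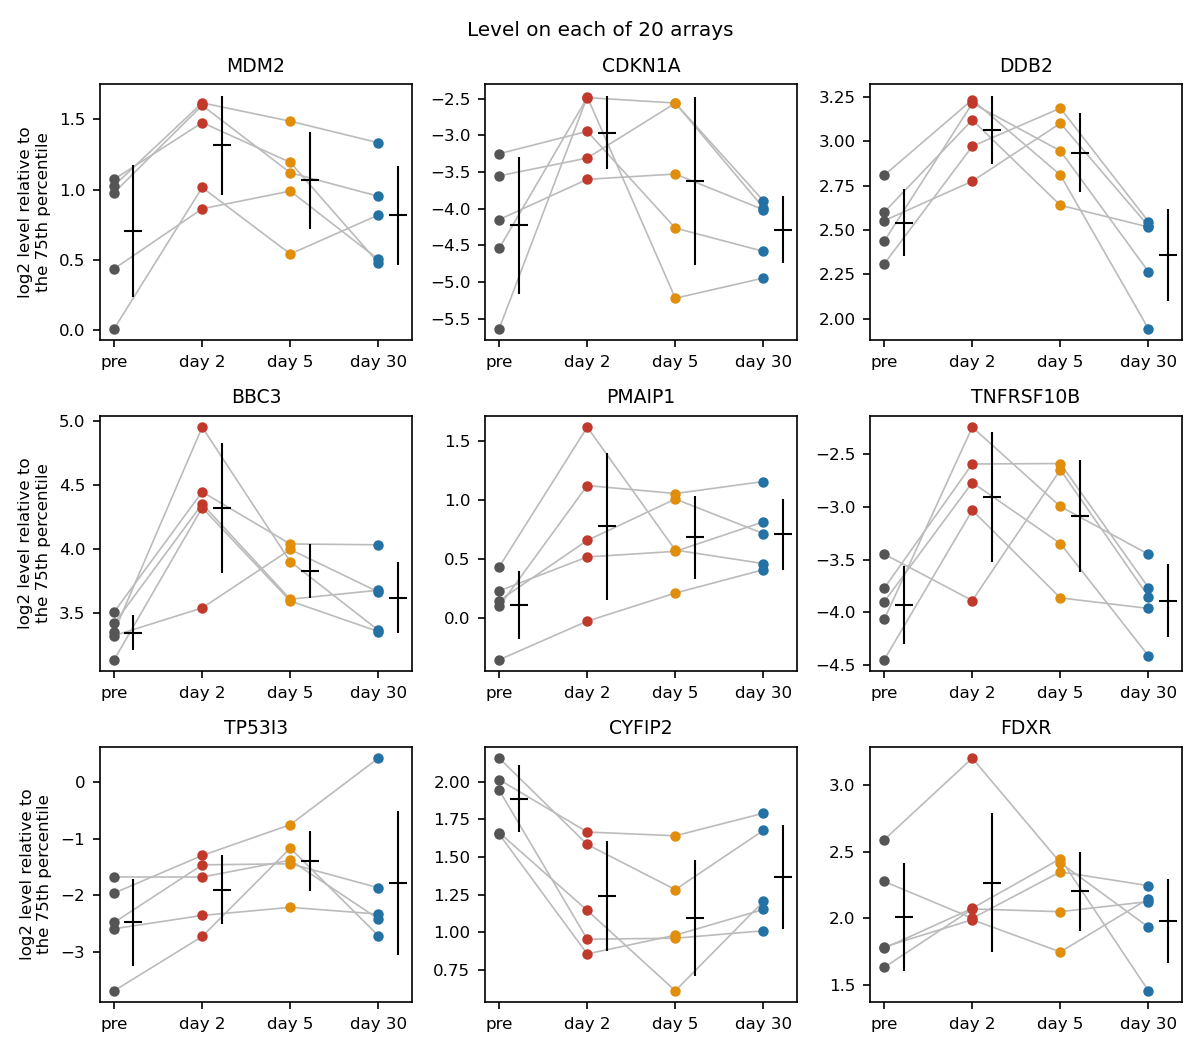
Log2 level relative to the array's 75th percentile on each of 20 arrays for 9 genes, with grey lines joining arrays of the same replicate number and black marks for the mean ± SD of the 5 arrays of a group. The vertical axes differ between panels, and the day 2 arrays of BBC3 all lie above its pre-irradiation arrays.

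Of the death receptors on the cell surface, FAS, TNFRSF10A and TNFRSF10B were tested. TNFRSF10B, the TRAIL receptor DR5, had levels of -3.90, -3.45, -3.77, -4.45 and -4.07 before irradiation, with 1 of 5 arrays above background, and -2.77, -3.89, -2.59, -3.03 and -2.24 on day 2, with 4 of 5. On day 5 they were -3.35, -2.65, -2.59, -3.86 and -3.00, with 3 of 5 above background, and on day 30 -4.41, -3.85, -3.76, -3.96 and -3.45, with 0 of 5. On day 2 replicate 2 lay within the pre-irradiation range while the other 4 arrays lay above all 5 pre-irradiation arrays. The change was 1.02 ± 0.31 (SE) on day 2 (adjusted p = 0.226) and 0.84 ± 0.16 (SE) on day 5, where it had the smallest p-value of the 30 genes (adjusted p = 0.279). The probe passed the filter through days 2 and 5, which hold 7 of its 8 arrays above background, so its place in the counts of these days is no support for them. As no day 30 array was well above background, the level there is a bound: day 2 was at least 1.94-fold higher than the lowest signal above background, or the probe's own, on the day 30 arrays. No fold is given for day 5 over day 30, since with normexp background correction day 5 was the lower of the 2. With that correction the log2 difference of day 30 from day 2 was -0.40, less than this bound.

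FAS, the receptor of the FAS ligand, had levels of -1.01, -0.97, -0.26, -0.94 and -1.04 before irradiation and 0.64, -0.84, -0.09, -0.82 and -0.15 on day 2. They were -0.35, -0.36, -1.36, -0.82 and -0.39 on day 5 and -0.31, -0.87, -0.35, -0.89 and -0.43 on day 30. Pre-irradiation replicate 3 stood apart from its group. The change on day 2 was 0.59 ± 0.25 (SE), in 5 of 5 pairs, with adjusted p = 0.329, and it was 0.33 without replicate 1. On days 5 and 30 it was 0.19 ± 0.28 (SE) and 0.28 ± 0.19 (SE). TNFRSF10A, the TRAIL receptor DR4, was higher by 0.22, 0.18 and 0.36 on days 2, 5 and 30, in 5 of 5 pairs on day 30 (adjusted p = 0.322).

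The 6 other apoptosis and survival genes were PHLDA3, TP53INP1, RPS27L, CYFIP2, AEN and ZMAT3. PHLDA3, a repressor of the survival kinase AKT, had levels of -1.05, -1.23, -0.78, -1.18 and -0.87 before irradiation and -0.33, -0.71, -0.52, -1.03 and -0.65 on day 2. Day 5 gave -0.48, -0.77, -0.65, -1.09 and -0.80, and day 30 gave -1.09, -1.43, -1.38, -1.62 and -0.99. All 5 pairs were higher on days 2 and 5 and lower on day 30, with changes of 0.38 ± 0.15 (SE) (adjusted p = 0.312), 0.26 ± 0.15 (SE) (adjusted p = 0.547) and -0.28 ± 0.17 (SE) (adjusted p = 0.418).

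TP53INP1, a stress protein that promotes p53 phosphorylation and autophagy, had levels of 1.67, 2.39, 2.42, 2.05 and 2.93 before irradiation and 2.66, 1.89, 2.96, 3.23 and 3.12 on day 2. On day 5 they were 1.82, 2.64, 2.69, 2.67 and 3.74, and on day 30 3.82, 2.58, 2.92, 2.16 and 3.21. The groups overlapped widely, and all pairs were higher on days 5 and 30. The changes were 0.48 ± 0.25 (SE), 0.42 ± 0.16 (SE) and 0.65 ± 0.30 (SE), with adjusted p = 0.406, 0.402 and 0.312. The 2nd probe of TP53INP1 gave smaller changes, of 0.11, 0.23 and 0.09 on days 2, 5 and 30, so the size depended on the probe.

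RPS27L, a ribosomal protein paralog that binds MDM2, had levels of 2.25, 2.48, 2.23, 2.44 and 2.26 before irradiation and 2.38, 2.79, 2.44, 2.36 and 3.10 on day 2. The day 5 levels were 2.47, 3.52, 2.40, 3.32 and 2.94 and the day 30 levels 2.42, 2.45, 3.23, 2.49 and 2.60. Replicates 2, 4 and 5 of day 5 lay above every pre-irradiation array. The change was 0.28 ± 0.17 (SE) on day 2, 0.60 ± 0.18 (SE) on day 5 (adjusted p = 0.344) and 0.31 ± 0.20 (SE) on day 30. RPS27L is close in sequence to RPS27, and whether its probe takes up signal of that gene was not tested.

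CYFIP2, a subunit of the actin-regulating WAVE complex that p53 induces in other cells, was the gene with the largest difference downward on days 2 and 5. Its levels were 1.94, 2.01, 1.65, 2.16 and 1.66 before irradiation and 0.95, 1.67, 0.86, 1.58 and 1.14 on day 2. They were 0.96, 1.64, 0.98, 1.28 and 0.61 on day 5 and 1.01, 1.79, 1.15, 1.68 and 1.20 on day 30. It was lower in 5 of 5 pairs on every day, and the day 5 arrays all lay below the pre-irradiation arrays, for which no share of all probes was counted. The changes were -0.64 ± 0.15 (SE) (adjusted p = 0.188), -0.79 ± 0.16 (SE) (adjusted p = 0.279) and -0.52 ± 0.17 (SE) (adjusted p = 0.198). AEN, an exonuclease of apoptosis, and ZMAT3, an RNA-binding splicing regulator, had changes of 0.18 and 0.31 on day 2 and no unadjusted p-value under 0.05 against pre-irradiation through their selected probes. The 2nd probe of AEN, above background on 17 arrays, was at 0.49 ± 0.24 (SE) on day 2 and at 0.47 ± 0.17 (SE) on day 5, the latter with an unadjusted p-value under 0.05.

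The redox and mitochondrial genes tested were TP53I3, FDXR, SESN1 and SESN2. TP53I3, the quinone oxidoreductase PIG3, had levels of -1.96, -2.59, -2.48, -3.68 and -1.68 before irradiation and -1.30, -2.35, -1.46, -2.73 and -1.68 on day 2. Day 5 gave -0.76, -2.21, -1.44, -1.17 and -1.38, and day 30 gave 0.42, -2.33, -1.87, -2.71 and -2.42. Day 5 was higher in 5 of 5 pairs, and on day 30 replicate 1 stood far above the other 4 arrays. The change was 0.57 ± 0.19 (SE) on day 2 (adjusted p = 0.254), 1.09 ± 0.32 (SE) on day 5 (adjusted p = 0.332) and 0.70 ± 0.38 (SE) on day 30 (adjusted p = 0.378).

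FDXR, ferredoxin reductase, which passes electrons from NADPH in mitochondria, had levels of 2.59, 1.79, 2.28, 1.78 and 1.63 before irradiation and 3.20, 1.99, 2.00, 2.08 and 2.07 on day 2. On day 5 they were 2.42, 1.75, 2.35, 2.45 and 2.05, and on day 30 1.93, 2.15, 2.25, 1.46 and 2.13. The replicate 1 array of day 2 lay far above the other 4, which lay inside the range of pre-irradiation. The change was 0.26 ± 0.17 (SE) on day 2 (adjusted p = 0.504, 4 of 5 pairs higher), 0.19 ± 0.17 (SE) on day 5 and -0.03 ± 0.21 (SE) on day 30. SESN2, a sestrin that restrains mTORC1, was higher by 0.65 on day 2 (adjusted p = 0.334, 3 of 5 pairs), and its relative SESN1 by 0.21 (adjusted p = 0.687). FBXO22, a substrate receptor of a ubiquitin ligase and the single gene of protein turnover, differed by 0.23 on day 2 and 0.09 on day 5.

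The samples after irradiation were also compared with each other, to see whether the early levels lasted. Between day 2 and day 5 none of the 30 genes had an unadjusted p-value under 0.05 in either direction, beside 2.17% of all probes higher and 1.39% lower, and the median change was -0.13 (0.03 with normexp background correction). TP53I3 was higher on day 5 in 5 of 5 pairs, by 0.51 (adjusted p = 0.972), and BBC3 was at -0.50 (adjusted p = 0.972).

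Day 30 was below day 2 for 20 of the 30 genes, and 7 of them (23.3%) had an unadjusted p-value under 0.05, beside 7.44% of all probes, while no gene was higher at that p-value, beside 5.40% of all probes. The 7 became 3 with normexp background correction. In the deposited log2 values 1 gene was lower. They hold 14 of the 30 genes and, of the 7, only BBC3, so that count cannot be set against the 7. The median change was -0.13 beside 0.00 for all probes. Over the 14 genes of the deposited values it was 0.01 beside -0.06 for all probes there. The 7 genes were BAX, PHLDA3, CDKN1A, TNFRSF10B, DDB2, MDM2 and BBC3. A lower level in every pair was found for 6 of the 30 genes, beside 6.70% of all probes. All 5 day 30 arrays lay below all 5 day 2 arrays for BAX, CDKN1A and DDB2 (10.0% of the genes), beside 0.892% of all probes.

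For BAX the day 2 levels were 2.74, 2.57, 2.94, 2.79 and 2.39 and the day 30 levels 1.87, 2.04, 2.12, 2.15 and 1.88. Before irradiation they were 2.70, 2.37, 2.41, 2.47 and 2.06 and on day 5 2.32, 2.72, 2.53, 2.19 and 2.28. All day 30 arrays lay below all arrays of pre-irradiation except replicate 5, and below all of day 2 and day 5. For day 30 against day 5 the share of all probes without overlap was not counted. The change from day 2 to day 30 was -0.68 ± 0.13 (SE) (adjusted p = 0.252). It was -0.66 ± 0.14 (SE) for PHLDA3 (adjusted p = 0.293), -1.32 ± 0.31 (SE) for CDKN1A (adjusted p = 0.308), -0.70 ± 0.18 (SE) for DDB2 (adjusted p = 0.336), -0.50 ± 0.16 (SE) for MDM2 (adjusted p = 0.363) and -0.70 ± 0.25 (SE) for BBC3 (adjusted p = 0.363). TNFRSF10B is among the 7 by the fit (adjusted p = 0.332), but its day 30 level is a bound. PMAIP1, by contrast, differed by -0.07 ± 0.24 (SE) with adjusted p = 0.927, and CYFIP2 by 0.13 ± 0.13 (SE) with adjusted p = 0.678. The dimmer CYFIP2 probe was at -0.27 ± 0.14 (SE), so the probes of CYFIP2 did not share a direction here. With all 20 arrays in one fit 164 of all probes (0.822%) were called in this comparison, BAX, PHLDA3 and DDB2 among them, with adjusted p-values of 0.0381, 0.0277 and 0.0955.

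Against day 5, day 30 was lower at an unadjusted p-value under 0.05 for 5 genes (16.7%), beside 6.64% of all probes, and higher for none, beside 1.84%. They were TNFRSF10B, with a bound on day 30, DDB2 (-0.58 ± 0.18 (SE)), PHLDA3 (-0.55 ± 0.17 (SE)), CDKN1A (-0.66 ± 0.27 (SE)) and AEN (-0.56 ± 0.24 (SE)). With normexp background correction 3 genes were lower. A lower level in every pair was found for 4 of the 30 genes (13.3%), beside 5.88% of all probes. The median change was -0.16 beside -0.05 for all probes, and with arrays scaled to their medians it was 0.05 beside 0.16. With normexp background correction TNFRSF10B, CDKN1A and AEN, all dim, were at 0.10, 0.06 and 0.04, so the direction of these 3 turned.

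**Figure D3:**
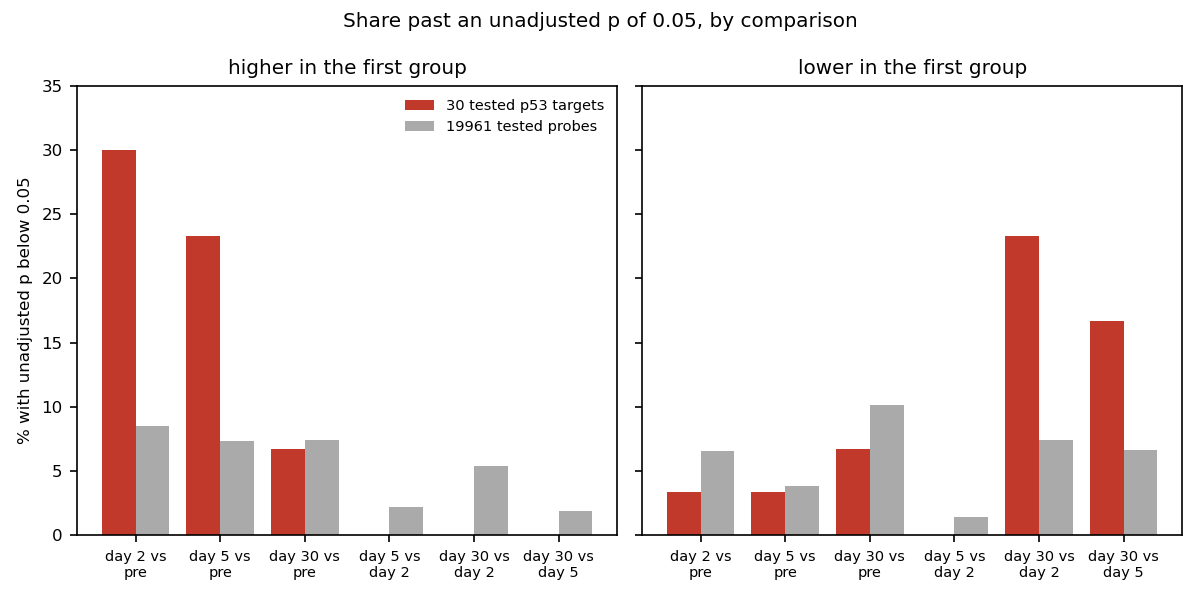
Percent of the 30 tested p53 targets (red) and of all 19961 tested probes (grey) with an unadjusted p-value under 0.05, higher (left) or lower (right) in the first group of each comparison. The genes reach 30.0% beside 8.47% on day 2 and, for lower levels on day 30 against day 2, 23.3% beside 7.44%, and with normexp background correction each of these 2 counts falls to 3 of the 30 genes.

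Separate probes of the same gene were read as a check on the values. Of the 30 genes, 10 had more than 1 probe past the filter, and their probes shared a direction against pre-irradiation for 10 of 10 on day 2, 9 of 10 on day 5 and 7 of 10 on day 30. The 3 probes of MDM2 gave 0.61 ± 0.15, 1.25 ± 0.40 and 1.02 ± 0.21 (SE) on day 2, from the brightest to the dimmest. In the same order they gave 0.36 ± 0.15, 0.87 ± 0.20 and 0.59 ± 0.22 on day 5 and 0.11 ± 0.22, 0.62 ± 0.26 and 0.30 ± 0.26 on day 30, where the middle probe had an unadjusted p-value under 0.05. The dimmest was above background on 1 pre-irradiation array and on all 5 of day 2. The 2 probes of DDB2 gave 0.52 ± 0.15 and 0.51 ± 0.17 on day 2 and 0.39 ± 0.18 and 0.57 ± 0.17 on day 5.

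Both TP53I3 probes printed above were higher, by 1.09 ± 0.32 and 1.35 ± 0.36 on day 5 and by 0.70 ± 0.38 and 1.20 ± 0.41 on day 30. For CYFIP2 the selected probe was at -0.79 ± 0.16 on day 5 and the dimmer at -0.24 ± 0.30, so the size on that day depended on the probe.

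**Figure D4:**
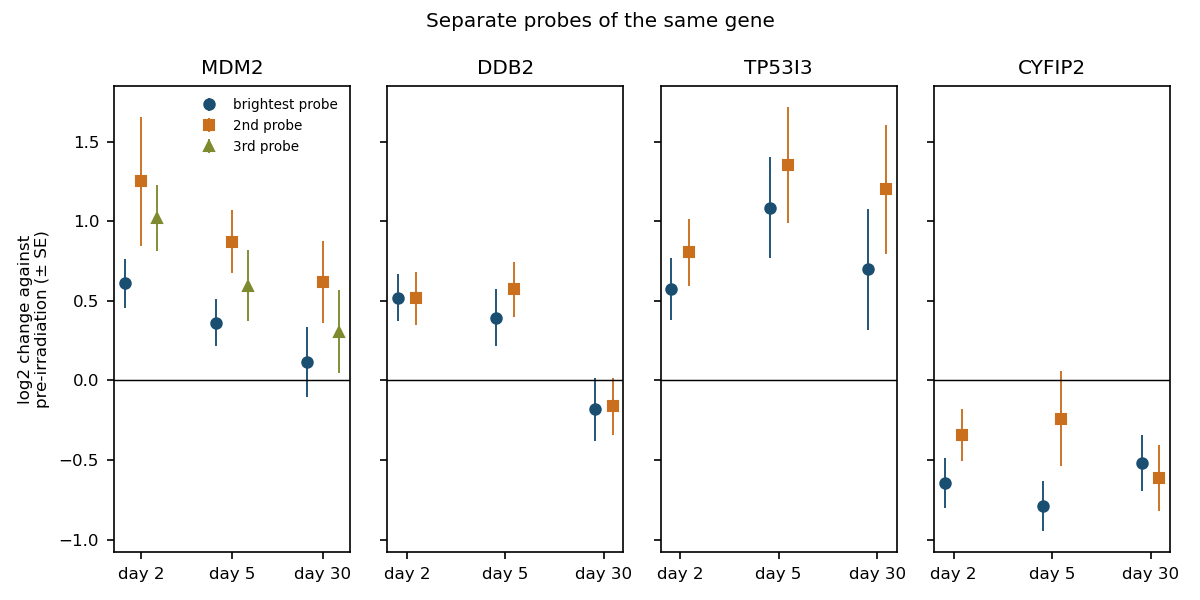
Log2 change against pre-irradiation on days 2, 5 and 30 for each probe of MDM2, DDB2, TP53I3 and CYFIP2, with bars of 1 SE over 5 pairs. The 3 MDM2 probes are all above 0 on day 2, at 0.61, 1.25 and 1.02, and both CYFIP2 probes are below 0 on each day.

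Among the genes that control p53, MDM4, the partner of MDM2 that masks p53, was at 0.06 ± 0.16 (SE), 0.22 ± 0.17 (SE) and 0.20 ± 0.22 (SE) on days 2, 5 and 30. Of 12 such regulators, all tested, 0 were higher and 1 (8.33%) lower at an unadjusted p-value under 0.05 on day 2. The shares of all probes were 8.47% and 6.55%. On day 5 the counts were 0 and 1 (8.33%), beside 7.35% and 3.82% of all probes. On day 30 they were 2 (16.7%) and 0, beside 7.43% and 10.1%. The medians of the regulators were -0.09, -0.04 and 0.12. The smallest p-values were those of TP53BP1, which binds broken chromatin (-0.37 on day 2 and -0.48 on day 5), and RFWD2, the ubiquitin ligase COP1 (0.43 and 0.28). On day 30 they were those of the deubiquitinase USP7 (0.84, adjusted p = 0.186) and RFWD2 (0.59, adjusted p = 0.202).

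A further list of 22 p53 targets outside the 33, of which 20 were tested, had median changes of 0.50, 0.29 and 0.38 on days 2, 5 and 30. None of the 20 was called by limma, and an unadjusted p-value under 0.05 went with 7, 2 and 6 higher genes (35%, 10% and 30%), beside 8.47%, 7.35% and 7.43% of all probes, and with 0, 0 and 1 lower genes (0%, 0% and 5%), beside 6.55%, 3.82% and 10.1%. On day 2 the smallest p-values belonged to GDF15, a stress cytokine, at 0.83 ± 0.17 (SE) (adjusted p = 0.154), and DRAM1, a lysosomal regulator of autophagy, at 0.96 ± 0.20 (SE) (adjusted p = 0.166). The same 2 genes had them on day 5, with 0.95 ± 0.30 (SE) and 0.47 ± 0.17 (SE). On day 30 they belonged to the ubiquitin ligase TRIM22 at 0.79 ± 0.18 (SE) (adjusted p = 0.14) and to DRAM1 at 0.82 ± 0.20 (SE) (adjusted p = 0.143).

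Whole blood is a mixture, and in it fewer cells of a type and less RNA per cell cannot be told apart. Marker lists of blood cells also differed from pre-irradiation on these days. All 22 T and NK cell markers were lower on day 2, with a median of -0.61 and 1 call, KLRB1 (-1.67 ± 0.21 (SE), adjusted p = 0.0965), and all 14 tested B cell markers were lower, with a median of -0.52. The summed level of the T and NK list, on a linear scale where 1 is the 75th percentile, ranged from 259 to 360 before irradiation and from 179 to 285 on day 2. On days 5 and 30 it ranged from 142 to 412 and from 159 to 316. That of the B cell list ranged from 109 to 219, from 90.6 to 175, from 104 to 132 and from 70.2 to 135 in the 4 groups in order of time. The defining markers CD3D (-0.57) and CD79A (-0.58) were measured on every array, and MS4A1 and PAX5 had no tested probe.

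Markers of myeloid cells and platelets were mostly higher on day 2, for 10 of 12 monocyte markers, 13 of 13 neutrophil markers and 11 of 11 platelet markers. The medians were 0.61 for the monocyte list, with C1QA (2.91 ± 0.30 (SE)) and C1QB (2.51 ± 0.26 (SE)) called, 0.96 for the neutrophil list and 1.47 for the platelet list. The summed platelet level ranged from 36.0 to 130.0 before irradiation, from 134 to 484 on day 2, from 81.3 to 198 on day 5 and from 62.2 to 95.0 on day 30. The neutrophil sums ranged from 145 to 432, from 293 to 970, from 229 to 693 and from 278 to 1136, and the monocyte sums from 103 to 291, from 207 to 356, from 107 to 316 and from 202 to 370. On day 30 the T and NK median was -0.40, the neutrophil median 0.95, the platelet median -0.13 and the erythroid median -0.72, where the summed erythroid level ranged from 2827 to 6597 beside 4589 to 5943 before irradiation. The proliferation list of 14 tested genes had medians of 0.03, 0.23 and 0.16. The part of these differences in the levels of the p53 targets was not tested.

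**Figure D5:**
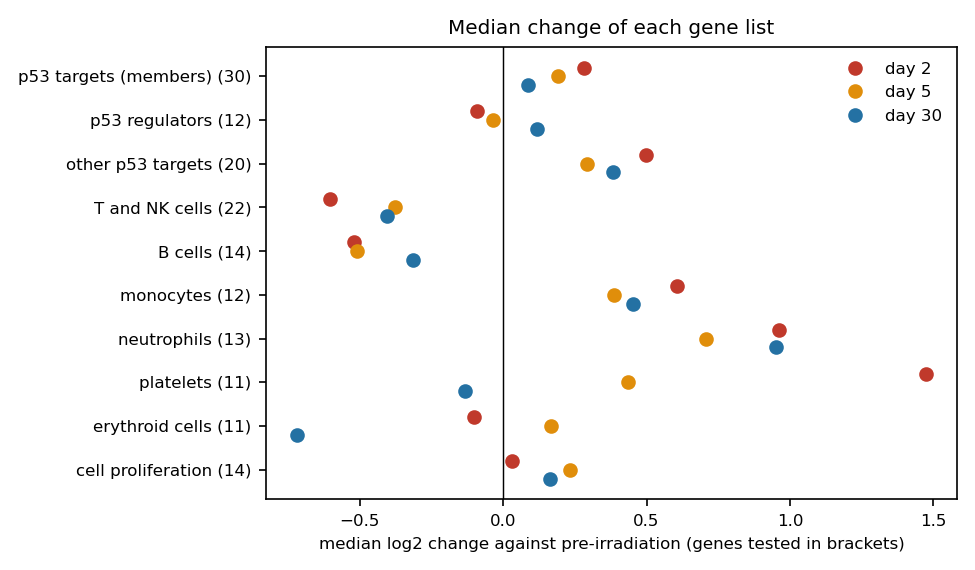
Median log2 change against pre-irradiation of the 30 tested p53 targets and of 9 other gene lists, with 1 point for each day and the number of tested genes in brackets. The p53 targets lie at 0.28, 0.19 and 0.09, between the lymphocyte lists below 0 and the myeloid lists above 0.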

How the data were processed

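Gene expression was measured on 20 one-color arrays, 5 in each of 4 groups. The intensity of each spot was extracted from the scans with Agilent Feature Extraction, version 12.0.2.2 per the file headers and 10.7 per the submitters' processing notes, and the processed signal was used here as deposited. The authors also deposited a table of log2 values for 5884 probes, for which 99.5% to 99.9% of values per array lay within 0.001 of the log2 signal plus 1 constant per array. It served as an alternative only.

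Control spots and spots flagged as outliers were left out, spots of a probe were averaged, log2 signals were scaled by subtracting each array's 75th percentile, and probes well above background on at least 5 arrays were kept (19961 of 34127). Each comparison was fitted on its own groups with limma 3.58.1 in R 4.3.3, with the replicate number as a block, because the study compared samples with their matched controls. P-values were adjusted over all tested probes (Benjamini-Hochberg). The limma fit was run on simulated arrays, with a pass mark only for log2 changes larger than any seen in the p53 targets. That run does not measure how well changes of the sizes reported here are found. Tables were made with Python 3.11.15 and pandas 2.3.3, and figures with matplotlib 3.10.9. The number of arrays limits the precision.

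The genes and lists (p53 regulators, other p53 targets, T and NK cells, B cells, monocytes, neutrophils, platelets, erythroid cells and cell proliferation) were chosen with earlier results of these data known. Values on every array are given for genes with an unadjusted p-value under 0.05 against pre-irradiation on at least 1 day, and for CDKN1A, MDM2, DDB2 and FDXR. Values of some listed genes are not reported here. The alternatives tried were scaling by quantiles or by the median, normexp background correction, stricter and no filters on dim probes, keeping outlier spots, the log2 values of the deposited table, fits without the block, with the slide in its place or over all arrays, an intensity trend, each probe alone, the mean over probes, an FDR of 5% and leaving out each replicate.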

Additional observations from a re-analysis of the deposited data

Results flagged for a closer look

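A single array stood far from the other 4 of its group for 6 of the p53 targets, out of 120 groups of 5 arrays examined, of which about 6 would do so by chance. FAS before irradiation was at -0.26 in replicate 3, and the others lay between -1.04 and -0.94. FDXR on day 2 was at 3.20 in replicate 1, and the others lay between 1.99 and 2.08. On day 30 TP53I3 was at 0.42 in replicate 1 (others -2.71 to -1.87), and TNFRSF10A was at 2.53 on the same array (others 1.34 to 1.58). RPS27L on day 30 was at 3.23 in replicate 3 (others 2.42 to 2.60), and FBXO22 was at -0.62 in replicate 5 (others -1.07 to -0.95). The share of spots well above background was 67.3% on day 5 replicate 3, and the other day 5 arrays lay between 55.9% and 58.5%.

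For BAX and PHLDA3 the change against pre-irradiation had opposite signs early and late. BAX was at 0.29 on day 2 and -0.39 on day 30, a difference of -0.68 (limma, adjusted p = 0.252). PHLDA3 was at 0.38 on day 2, 0.26 on day 5 and -0.28 on day 30, so day 30 differed by -0.66 from day 2 (adjusted p = 0.293) and by -0.55 from day 5 (adjusted p = 0.561). All 5 pairs shared these directions for BAX on days 2 and 30 and for PHLDA3 on all 3 days, and none of the differences passed the adjusted threshold.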

How the results depend on the processing

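In the main limma fit no p53 target was called in any comparison. Counts of the 30 genes at an unadjusted p-value under 0.05 are written as higher and lower. On day 2 against pre-irradiation (9 and 1), 3 were higher with normexp background correction, 4 in the deposited log2 values (14 genes), and 2 were lower with the slide as a block. On day 2, 1 gene (BBC3) was called with probes above background on all 20 arrays, where 190 of all probes (1.24%) were called. BBC3 was also the 1 call in the deposited values, beside 327 of all probes (5.78%), and with an intensity trend, beside 200 (1%). Calls were 3 with all 20 arrays in one fit (343 of all probes, 1.72%). On day 5 (7 and 1), median scaling gave 2 and 2 with a median change of 0.053, the deposited values 4 higher with a median of 0.32, and 2 were lower with normexp, the filter for all 20 arrays, all arrays in one fit and the intensity trend. On day 30 (2 and 2), normexp gave 1 call among the 30 genes, CYFIP2 (limma, adjusted p = 0.0755), where 952 of all probes (4.77%) were called. The deposited values gave 1 and 0 with a median of 0.31, all arrays in one fit 4 lower, and the slide block 1 and 1.

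For day 5 against day 2 (0 and 0), normexp gave 1 higher, and all arrays in one fit and each probe on its own 1 lower. For day 30 against day 2 (0 and 7), normexp gave 3 lower, each probe on its own 1 higher, and all arrays in one fit 3 calls (164 of all probes). The deposited values gave 1 lower, but of those 7 genes they hold only BBC3. For day 30 against day 5 (0 and 5), median scaling gave 1 and 1 with a median of 0.051, and normexp 3 lower with a median of 0.031. No filter, the filter for all 20 arrays and the slide block gave 3 lower each. The deposited values gave 0 lower, but of those 5 genes they hold only AEN. In this comparison normexp turned CDKN1A (0.061), TNFRSF10B (0.10) and AEN (0.042). In every comparison the deposited values hold only 14 of the 30 genes, so their counts and medians are those of another set of genes. The cause of the other shifts was not tested. Median scaling moved the median of all probes to -0.11 on day 5, and normexp to 0.16 on day 2.

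With 1 replicate left out, calls on day 2 ranged from 0 to 2 (BBC3 and TNFRSF10B without replicate 2) and lower genes from 1 to 2 (2 without replicate 2). Higher genes on day 5 ranged from 2 (without replicate 2) to 8 and lower from 1 to 2, and on day 30 from 1 to 3 and from 1 to 2. For day 5 against day 2 the ranges were 0 to 1 and 0 to 3 (3 without replicate 2), and for day 30 against day 5 lower genes ranged from 2 (without replicate 2) to 5. The median on day 30 was -0.02 without replicate 5. Of 585 values for 34 single results, 582 kept their direction. These results were picked by an unadjusted limma p-value under 0.05 in the main fit. Some settings, such as an intensity trend, leave the estimate as it was. A kept direction was thus largely fixed in advance. TNFRSF10B passed the filter through days 2 and 5, so its call is no support. Over all settings, calls among all probes ranged from 0 to 588 on day 2, from 0 to 9 on day 5, from 0 to 952 on day 30, from 0 to 164 for day 30 against day 2 and from 0 to 2 for day 30 against day 5, and were 0 for day 5 against day 2.

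Without the replicate block, no p53 target was called in any comparison, as with it. Among all probes, 0 rather than 12 were called on day 2 against pre-irradiation. For day 30 against day 2, 4 rather than 10 of all probes were called. Counts of the 30 genes without the block were 8 and 1, 6 and 1, and 2 and 3 on days 2, 5 and 30. They were 0 and 0 for day 5 against day 2, 0 and 7 for day 30 against day 2 and 0 and 4 for day 30 against day 5. Deviations of same-numbered arrays correlated over 0.1 in 25 of 30 pairs (-0.16 to 0.65), and 21 of 30 were highest with their own number. Against pre-irradiation, replicates 1, 4 and 5 of day 30 (0.18, 0.07 and 0.04) and replicate 3 of day 2 (0.17) were not. The other day 2 and day 30 arrays and every day 5 array were. Dim probes such as CDKN1A and TNFRSF10B are limited by signal near background.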
